A study of Mus musculus with 234 samples.

Results

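The SLC25 family of mitochondrial carriers was examined in single cardiomyocytes (CMs) of mice that carry a mutated human BAG3. Its genes were taken as the rows of the deposited count table whose symbol is Slc25a followed by a number, without *Slc25a3*, *Slc25a4* and *Slc25a5* and with a count in at least 10% of the 234 cells. 47 rows carried such a symbol, 44 were left without the 3 named genes, and 29 passed the limit, among 55538 features in the table and 23664 with a count in any cell. The limit uses detection over all cells and no difference between genotypes. *Slc25a29* (12.4% of cells) and *Slc25a27* (14.5%) lay just inside it, and *Slc25a24* (9.8%) and *Slc25a35* (8.1%) just outside it. 3 of the 15 rows under the limit, *Slc25a43*, *Slc25a48* and *Slc25a54*, had no count in any cell.

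The study asked how BAG3 with the P209L exchange, which causes cardiomyopathy and myofibrillar myopathy in patients, acts in muscle, and its CMs were measured one by one with SMART-seq2, a full-length method without molecular identifiers. The human BAG3 P209L sequence is fused to eGFP and stands behind a floxed stop cassette under the CAG promoter in the Rosa26 locus, from 1 embryonic stem cell clone. PGK-Cre removes the stop cassette in the whole body and not in CMs alone. By staining, the paper found the transgene in hearts only in CMs, and among tissues mainly in striated muscle. Its expression outside the picked CMs was not analysed here. CMs came from 5 mice: the labels name mice M25 and M116 PGKcre:BAG3P209L_homo, mouse M72 PGKcre:BAG3P209L_het and the control mice M26 and M73 C57BL/6. In the study's methods controls are siblings, which may be wild type or carry Cre or the silent transgene alone, the background is mixed, and the age is 2 weeks, with none given for mouse M72. CMs were freed by Langendorff perfusion and picked by hand, and those of the transgenic mice were split into bright and dim by their eGFP signal under a fluorescence macroscope. The counts of the cells of each mouse and label were summed into 8 sums, since the mouse is the replicate: control M26 (24 cells) and M73 (9 cells), homo_bright M25 (21) and M116 (59), homo_dim M25 (18) and M116 (50), and het_bright (27) and het_dim (26) of M72.

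The sums held 4096609 to 40508124 counts, with the fewest in control M73. The plate names carry 2 prefixes, which are used here as batches, and what the prefixes mark is not given in the sources used here. Mice M25 and M26 lay on the 1 plate with the first prefix, and mice M116, M73 and M72 on 3 plates with the second, with a homozygous and a control mouse in each. The transgene feature hBAG, at 279.9 and 209 normalised CPM (counts per 1000000 counts of the sum) in homozygous bright and 10.4 and 91.1 in homozygous dim CMs, was at 0.446 and 0.58 in the control sums. In mouse M72 it went against the labels, with 110.3 in the CMs labelled bright and 243 in those labelled dim, and a median of 3.88 and 216 CPM per cell. The bright and dim sums of M72 are therefore named below by their labels only. All 10 CM markers had counts, with summed levels of 79428 to 88687 CPM in the 4 homozygous sums, below the 92511 and 97466 CPM of the controls and the 94698 and 100498 CPM of M72. Control M73 held 218970 CPM on mitochondrially encoded genes, mouse M72, on the same plate, 168365 and 173652 CPM, and mice M25, M26 and M116, on the other plates, 95352 to 115601 CPM. With 9 cells, control M73 also had the fewest. The fold changes of named genes against control are also given without control M73.

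SLC25 carriers are small proteins of the inner mitochondrial membrane that exchange metabolites, nucleotides and cofactors between the cytosol and the matrix. The heart draws most of its ATP from fatty acids and other fuels burnt in mitochondria, and depends on them for acylcarnitine uptake, for moving reducing power inward by the malate-aspartate shuttle and for ATP export. The ADP/ATP exchangers *Slc25a4* and *Slc25a5* and the phosphate carrier *Slc25a3* are the most abundant relatives, and their summed level of 7432 to 12959 CPM is given here only for scale.

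The 29 carriers together held 1573 CPM in control M26 and 1215 CPM in control M73. Bright CMs held 1515 (M25) and 1573 CPM (M116), dim CMs 1505 and 1661 CPM, and the heterozygous mouse 1339 (labelled bright) and 1271 CPM (labelled dim). The bright and the dim sums lay inside or just above the range of the control sums, which differed from each other by more than either transgenic pair did. On the 2 plates of mouse M116 the same total was 1667 and 1475 CPM in bright and 1597 and 1754 CPM in dim CMs. The 4 highest carriers made up 62.2 to 69.5% of the total in every sum.

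Per kilobase of exon, the order was led by *Slc25a11*, the 2-oxoglutarate/malate exchanger of the malate-aspartate shuttle, with a mean level of 224 CPM per kilobase over the 8 sums. Its lowest sum, 154 CPM per kilobase, lay above the highest sum of every other carrier. *Slc25a39*, which supplies mitochondria with glutathione (36.4), *Slc25a12*, the aspartate/glutamate carrier aralar (34.5), and *Slc25a20*, the carnitine/acylcarnitine carrier (25.3), came next. Their ranges over the sums, 17.2 to 47.3, 27.7 to 39.0 and 11.7 to 38.9 CPM per kilobase, overlapped, so their order is not resolved. *Slc25a13*, the second aspartate/glutamate carrier (citrin), and *Slc25a46*, an outer membrane member tied to mitochondrial fission and lipid transfer, followed with 15.4 and 13.8 CPM per kilobase and overlapping ranges. The lowest of the 29 were *Slc25a30* (0.79) and *Slc25a25* (0.62). SMART-seq2 reads carry no strand, so reads of genes that overlap on opposite strands cannot be told apart. For *Slc25a11*, 8.92% of the exonic bases are shared with *Rnf167* on the opposite strand. The share was 14.9% for *Slc25a33* (with *Gm13068*), 7.06% for *Slc25a46*, 6.60% for *Slc25a10* and 6.33% for *Slc25a37*, also on the opposite strand, and at most 4.82% for the other carriers.

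To show the DNA in front of the highest carriers, the 250 bases before the RefSeq start of *Slc25a11*, *Slc25a12* and *Slc25a20* are given, the 3 carriers with the highest CPM, and those of *Slc25a34*, the only carrier window with the half-site of oestrogen-related receptors, regulators of mitochondrial genes. They lie in GRCm38.p6 at chr11:70647040-70647289 (minus strand), chr2:71367756-71368005 (minus), chr9:108661886-108662135 (plus) and chr4:141623835-141624084 (minus). Capitals mark, on either strand, the GC box GGGCGG, the ETS-type site CCGGAAG and the half-site AAGGTCA.
Slc25a11: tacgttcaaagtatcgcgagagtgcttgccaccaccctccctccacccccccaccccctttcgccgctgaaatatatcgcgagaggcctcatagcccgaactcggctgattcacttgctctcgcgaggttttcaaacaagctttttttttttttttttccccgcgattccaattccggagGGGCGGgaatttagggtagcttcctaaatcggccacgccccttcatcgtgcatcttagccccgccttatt
Slc25a12: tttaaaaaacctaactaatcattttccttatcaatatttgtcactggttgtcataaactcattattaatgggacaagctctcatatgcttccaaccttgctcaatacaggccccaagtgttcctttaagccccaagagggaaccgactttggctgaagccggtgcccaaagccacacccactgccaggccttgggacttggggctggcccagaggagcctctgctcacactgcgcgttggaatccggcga
Slc25a20: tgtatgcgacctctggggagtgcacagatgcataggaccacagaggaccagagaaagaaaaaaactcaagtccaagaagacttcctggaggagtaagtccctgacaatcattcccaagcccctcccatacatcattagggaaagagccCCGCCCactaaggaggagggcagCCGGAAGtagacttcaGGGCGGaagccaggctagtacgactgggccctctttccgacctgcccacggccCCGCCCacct
Slc25a34: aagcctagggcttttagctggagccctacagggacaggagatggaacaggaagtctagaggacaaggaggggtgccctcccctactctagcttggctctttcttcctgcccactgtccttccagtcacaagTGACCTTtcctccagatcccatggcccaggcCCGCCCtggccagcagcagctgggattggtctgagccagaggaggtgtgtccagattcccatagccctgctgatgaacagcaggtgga

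*Slc25a11* held 1 GC box, 70 bases before the start, *Slc25a20* held 3 around 1 ETS-type site, and *Slc25a12* held none of the 3 motifs. RefSeq windows were at hand for 21 of the 29 carriers, 27 windows in all. A GC box stood in 77.8% of these windows, in 59.1% of the 9933 windows of genes detected in at least 10% of cells, and in 32.7% of all 32851 windows of this length. TATAAA stood in 0 of the 27 windows, against 6.38% and 12.4%. CCGGAAG stood in 11.1% (*Slc25a17*, *Slc25a20* and *Slc25a38*), against 14.5% and 6.91%, and AAGGTCA in 3.7%, against 2.85% and 4.08%. The motifs searched do not overlap each other, and a match of letters is no evidence of binding. The GC content of the windows had a median of 57.6%, against 60.4% for genes detected in at least 10% of cells.

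The 3 carriers of fatty acids, oxoglutarate and dicarboxylates are described first, in CPM normalised by TMM factors over all 8 sums. *Slc25a11* stood at 637 in control M26 and 389 in control M73, 458 (M25) and 431 (M116) in bright, 507 and 540 in dim, and 436 and 391 in the CMs of M72 labelled bright and dim. Every transgenic sum lay between the 2 controls. *Slc25a20* stood at 136 and 115.99 in the controls, 140 and 120 in bright, 145 and 173 in dim, and 59.6 and 79.1 in M72. Both sums of mouse M72 lay below the other 6, and the 2 dim sums above both controls. *Slc25a10*, the dicarboxylate carrier, stood at 5.47 and 0.58 in the controls, 6.55 and 10.1 in bright, 12.3 and 13.7 in dim, and 8.21 and 12.3 in M72, with only 2 counts behind the value of control M73.

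Among the 7 amino acid carriers, *Slc25a12* stood at 281 (M26) and 331 (M73) in control, 243 and 237 in bright, 197 and 235 in dim, and 302 and 221 in M72. All 4 homozygous sums lay below both controls, whereas with library size alone bright M116 (264 CPM) lay above control M26 (257 CPM). *Slc25a13* stood at 68.9 and 42.3 in control, 54.5 and 60.2 in bright, 49.8 and 50.1 in dim, and 65.4 and 74.1 in M72, with the homozygous sums between the controls. *Slc25a44*, a carrier of branched-chain amino acids, stood at 15.1 and 42.1 in control, 13.7 and 14.6 in bright, 24.2 and 10.6 in dim, and 54.3 and 14.0 in M72. In control M73, 1 cell held 96% of its counts. The glutamate carrier *Slc25a22* ranged from 7.72 to 30.4, the ornithine carrier *Slc25a15* from 2.29 to 14.4, and *Slc25a29*, a carrier of basic amino acids, from 0 to 10.04. *Slc25a38*, a glycine carrier needed for haem synthesis, stood at 8.98 in control M26, with no count in control M73, at 9.83 and 3.06 in bright, 15.3 and 9.32 in dim, and 13.4 and 15.7 in M72.

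Among the 11 carriers of nucleotides and cofactors, *Slc25a51*, which imports NAD, and *Slc25a36*, a pyrimidine nucleotide carrier, had the highest mean CPM over the 8 sums. They ranged from 17.98 to 60.9 and from 30.5 to 49.3. *Slc25a26* brings S-adenosylmethionine, the methyl donor, into the matrix. It stood at 17.4 in control M26 and 0.29 in control M73, 18.2 and 20.4 in bright, 8.36 and 10.4 in dim, and 5.93 and 10.5 in M72. Bright CMs of both homozygous mice lay above the dim CMs, whereas in mouse M72 the CMs labelled bright, with the lower hBAG level, lay below those labelled dim. *Slc25a32*, a carrier of folate and FAD, stood at 4.30 and 0.58 in control, 13.8 and 13.9 in bright, 7.94 and 3.35 in dim, and 10.3 and 6.15 in M72. The bright sums of mice M25 and M116 were the highest 2 of the 8. *Slc25a16*, linked to coenzyme A transport, stood at 23.1 and 0.58 in control and from 18.1 to 25.5 in the 6 transgenic sums, so only control M73, with 2 counts, was out of line. *Slc25a33*, the other pyrimidine nucleotide carrier, stood at 18.7 and 64.7 in control, 21.3 and 6.17 in bright, 18.8 and 7.97 in dim, and 5.40 and 9.22 in M72. The calcium-regulated ATP-Mg/phosphate carriers *Slc25a23* and *Slc25a25* ranged from 16.0 to 30.7 and from 0.87 to 9.07. *Slc25a17*, a peroxisomal carrier of cofactors, ranged from 11.4 to 37.2, and *Slc25a42*, which exchanges coenzyme A, from 11.04 to 42.5.

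Among the carriers of iron and glutathione, *Slc25a39* stood at 140 and 56.3 in control, 124 and 112 in bright, 113 and 94.0 in dim, and 89.7 and 66.3 in M72. Its close relative *Slc25a40* stood at 11.6 and 23.8 in control, 7.05 and 5.04 in bright, 10.2 and 2.98 in dim, and 4.41 and 3.79 in M72, with every transgenic sum below both controls. The mitoferrins *Slc25a28* and *Slc25a37*, which import iron, ranged from 3.48 to 14.9 and from 2.27 to 14.3. *Slc25a27*, an uncoupling protein relative, stood at 2.12 in control M26 and 34.5 in control M73, 8.06 and 3.26 in bright, 1.47 and 2.92 in dim, and 6.84 and 12.4 in M72. 66% of its counts in control M73 came from 1 cell. Its relative *Slc25a30* ranged from 1.46 to 6.15. *Slc25a46* stood at 70.2 and 106 in control, 62.3 and 74.9 in bright, 73.8 and 97.7 in dim, and 77.6 and 39.7 in M72, and the orphan member *Slc25a34* ranged from 16.8 to 38.3. The plot of levels shows that the points of one carrier lie close together at the top and spread at the bottom.

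**Figure D1:**
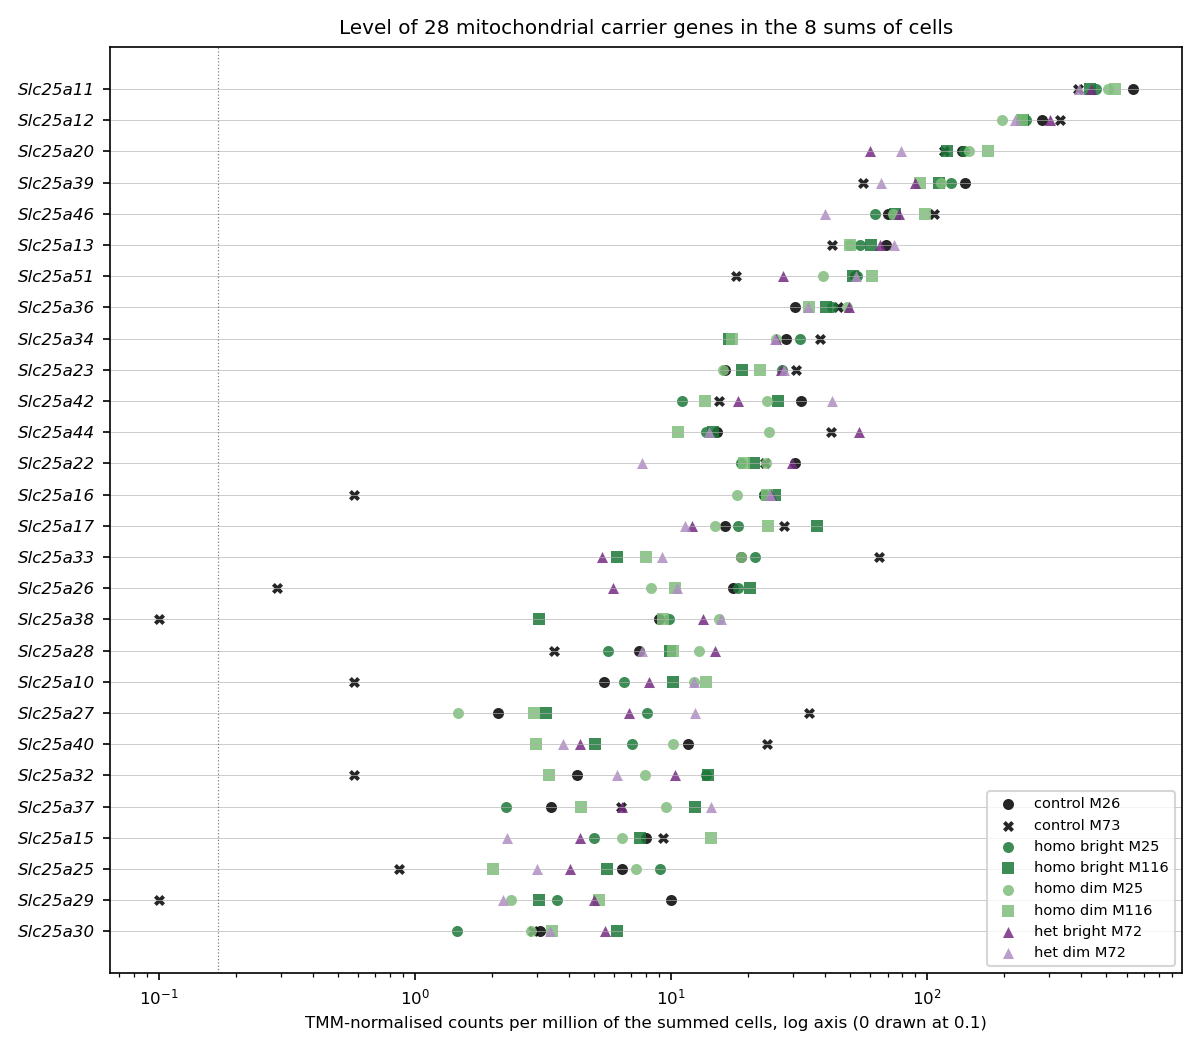
TMM-normalised CPM (log axis) of 28 of the 29 carriers, ordered by mean CPM, with 1 point for each of the 8 sums of cells and a value of 0 drawn at 0.1. *Slc25a11* lay between 389 and 637 in all sums, and control M73 (black crosses) lay far to the left for *Slc25a16* (0.58), *Slc25a26* (0.29) and *Slc25a38* (0).

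How far the control mice differ sets what a comparison can show. The median absolute log2 difference over the 29 carriers, on log2(CPM + 1), was 1.00 between control mice M26 and M73, 0.35 between the bright CMs and 0.48 between the dim CMs of mice M25 and M116. It was 0.36 between bright M25 and control M26, which share a plate, and 1.19 between bright M116 and control M73. 2 plates of the same mouse, M116, differed by 0.33 in bright and by 0.54 in dim CMs. Bright and dim CMs of 1 mouse differed by 0.46 (M25), 0.38 (M116) and 0.52 (M72), which is within the range of the 2 plates of mouse M116.

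Single cells held much of some sums. In control M73, 1 cell held at least 50% of the summed counts for 19 of the 29 carriers, against 5 in control M26 and 1 to 5 in the other sums. *Slc25a17* and *Slc25a44* (96% each), *Slc25a37* (91%), *Slc25a42* (87%) and *Slc25a36* (83%) were among them. *Slc25a11*, in contrast, never drew more than 24% of a sum from 1 cell. With 9 cells in control M73 and 18 to 59 in the other sums, this share also depends on the number of cells.

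**Figure D2:**
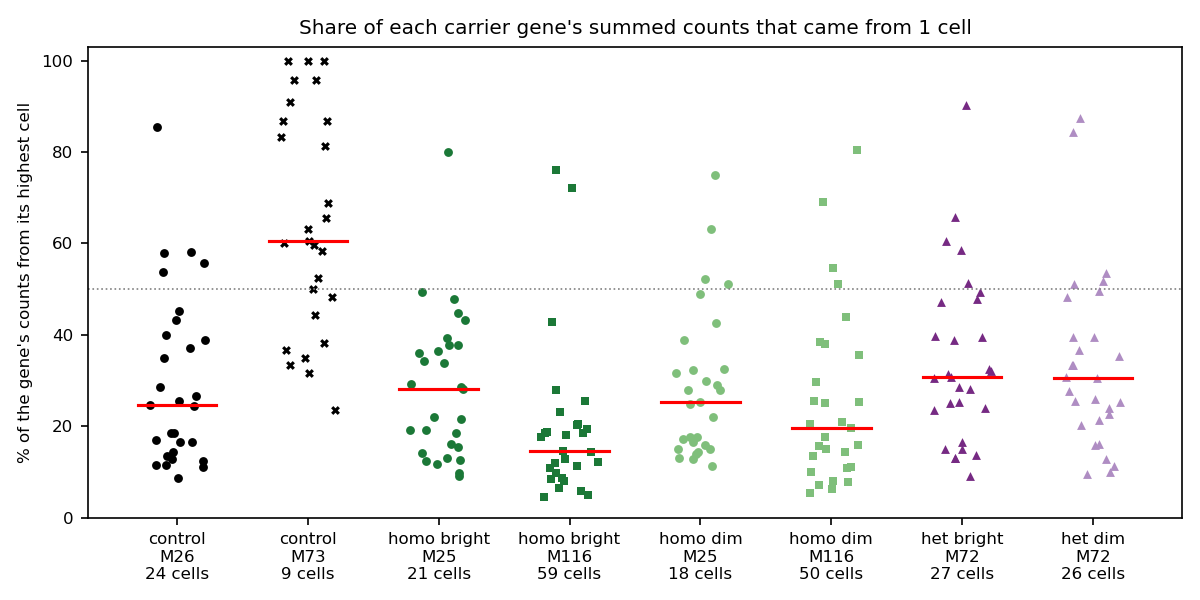
For each sum of cells (horizontal axis) the share, in percent, of a carrier's counts that came from its highest cell, with 1 point per carrier that had a count and a red line at the median. In control M73 (9 cells) 19 of 29 carriers lay at or above 50% (dotted line), against 1 to 5 in every other sum.

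Detection per cell was compared at equal depth, with each cell thinned to 100000 counts and 20 cells below that depth left out (4 and 1 of control M26 and M73, 7 and 2 of bright and dim M116, and 4 and 2 of bright and dim M72). The median number of carriers with a count was 15.5 in control M26 and 10.5 in control M73, 15 (M25) and 13 (M116) in bright, 14 and 12 in dim, and 11 and 13 in the CMs of M72 labelled bright and dim. Without thinning the medians were 17.5 and 13 in control, 17 and 15 in bright, 18.5 and 15 in dim, and 14 and 16 in M72. The thinned medians were 14 to 15.5 on the plate of mice M25 and M26 and 10.5 to 13 on the others. No mouse lay in both batches, so plate and mouse cannot be told apart here. *Slc25a11* had a count in 95 to 100% of thinned cells in every sum. No cell type that lacks the carriers was measured, so a background share from free RNA cannot be given.

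**Figure D3:**
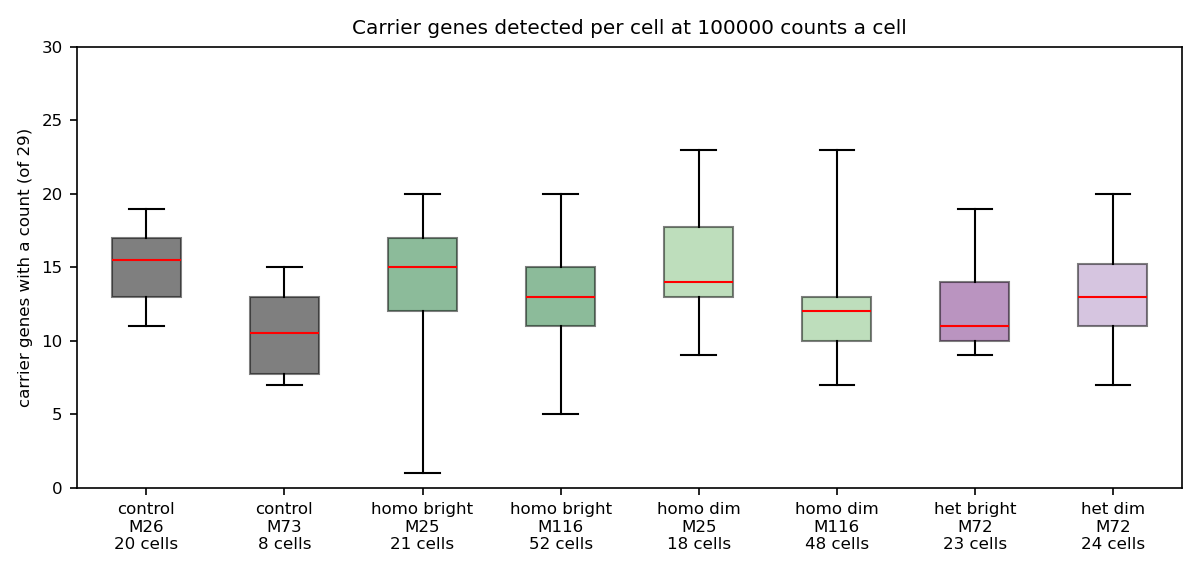
Number of the 29 carriers with a count per cell after thinning to 100000 counts (line, median; box, quartiles; whiskers, lowest and highest cell), for each sum. Medians ran from 10.5 in control M73 to 15.5 in control M26, and the bright (15 and 13) and dim (14 and 12) medians lay between them.

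Bright homozygous CMs were first compared with control CMs, with 2 mice in each group and edgeR's quasi-likelihood test on 12203 features. No carrier differed at an adjusted p of 0.05, where the test called 2 features, or 0.0164%, which are the 2 transgene features. At an unadjusted p under 0.05 stood 0 of 29 carriers and 799 features (6.55%), and DESeq2 called 188 features and 0 carriers. 15 log2 fold changes were positive (54.1% of all features are) and 14 negative, from -1.73 to 2.44, with a median of 0.02 against 0.11 over all features tested. With library size alone 17 were positive and 12 negative, and with each cell weighted equally 22 and 7, where the medians over all features were 0.41 and 0.49. In 4 carriers both bright sums lay above both controls (*Slc25a32*, *Slc25a10*, *Slc25a26* and *Slc25a16*) and in 5 below (*Slc25a22*, *Slc25a12*, *Slc25a15*, *Slc25a44* and *Slc25a40*), a pattern that 24.3% and 14.8% of all features show. All 4 in the first set had 1 or 2 counts in control M73. With library size alone only *Slc25a40* of the 5 stayed below, and *Slc25a20*, *Slc25a25*, *Slc25a36* and *Slc25a51* joined those above. On that scale *Slc25a12* stood at 255 and 264 CPM in bright and 257 and 279 CPM in control. The share of all features was not counted on it. Of the 10 CM markers all had negative values here, with a median of -0.67, 7 without overlap, 4 at an unadjusted p under 0.05 and 0 past the adjusted threshold, and the part of this in the carrier values was not tested.

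The largest positive values were 2.44 ± 1.28 (SE) for *Slc25a32*, with the smallest adjusted p of the carriers (0.865), 1.42 ± 1.41 for *Slc25a10*, 1.10 ± 1.45 for *Slc25a26*, 1.01 ± 1.35 for *Slc25a16* and 0.98 ± 1.37 for *Slc25a25*. Without control M73 they came to 1.69, 0.62, 0.16, 0.08 and 0.20. The largest negative values were -1.73 ± 1.41 for *Slc25a27*, -1.64 ± 0.92 for *Slc25a33*, -1.58 ± 0.92 for *Slc25a40* and -1.04 ± 0.77 for *Slc25a44*. Without control M73, *Slc25a27* turned to 1.42, and *Slc25a33*, *Slc25a40* and *Slc25a44* came to -0.44, -0.93 and -0.086. For carriers with many counts the estimate was tighter: *Slc25a12* gave -0.37 ± 0.29, *Slc25a11* -0.22 ± 0.32, *Slc25a20* 0.02 ± 0.33, *Slc25a13* 0.03 ± 0.44, *Slc25a39* 0.25 ± 0.48 and *Slc25a46* -0.39 ± 0.41. Without control M73 these 6 came to -0.22, -0.51, -0.064, -0.26, -0.24 and -0.025. None of these differences passed the test. Within the batches the median log2 ratio of the carriers was -0.14 for bright M25 over control M26 (-0.018 over all features). For bright M116 over control M73, which share the batch but no plate, it was 0.42 (0.040), with 2 carriers without a count left out.

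Dim homozygous CMs were compared with the same control sums. Of 12195 features tested, 0 (0.0%) and of the carriers 0 passed an adjusted p of 0.05, while 759 features (6.22%) and 0 carriers stood at an unadjusted p under 0.05 and DESeq2 called 137 features and 0 carriers. The median log2 fold change was 0.01 against 0.10 over all features. 15 values were positive (54.2% of all features are) and 14 negative, from -3.07 to 2.04. With library size alone 19 were positive and 10 negative, and with each cell weighted equally 23 and 6, where the medians over all features were 0.38 and 0.49. *Slc25a10*, *Slc25a38*, *Slc25a20* and *Slc25a28* lay above both controls in both dim sums (23.8% of all features do) and *Slc25a22*, *Slc25a12*, *Slc25a33*, *Slc25a34* and *Slc25a40* below (14.2%). With library size alone *Slc25a22*, *Slc25a33* and *Slc25a34* overlapped the controls, and *Slc25a30* joined those above. *Slc25a40* stayed below, and *Slc25a12* only just (256.4 CPM in dim M116, 256.7 CPM in control M26). The largest values were -3.07 ± 1.48 for *Slc25a27* (adjusted p = 0.907), -1.66 ± 0.83 for *Slc25a33*, -1.44 ± 1.03 for *Slc25a40*, -0.73 ± 0.80 for *Slc25a44* and -0.65 ± 0.60 for *Slc25a34*, and on the other side 2.04 ± 1.32 for *Slc25a10*, 1.40 ± 1.71 for *Slc25a38*, 1.15 ± 1.53 for *Slc25a32*, 1.04 ± 1.06 for *Slc25a28* and 0.78 ± 1.34 for *Slc25a16*. The fitted value of *Slc25a38* depends on the prior count, since control M73 had no count of it. *Slc25a12* came to -0.52 ± 0.32, *Slc25a20* to 0.31 ± 0.34 and *Slc25a11* to 0.01 ± 0.34. Of the CM markers, 8 of 10 were negative, with a median of -0.61, 5 without overlap and 1 at an unadjusted p under 0.05.

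Of the fits run, carriers were called only in the one that left out control M26. With control M73 as the only control, *Slc25a27* (-3.98), *Slc25a38* (10.95) and *Slc25a16* (5.14) passed the threshold, 3 of 29 carriers beside 827 of 14036 features (5.89%), under the assumption that the lone control varies like the dim sums. With control M26 as the only control, 0 carriers and 3 features (0.0207%) passed, and the 3 carriers came to 0.048, 0.45 and -0.15. On that fit *Slc25a33* came to -0.49, *Slc25a40* to -0.83, *Slc25a44* to 0.20 and *Slc25a34* to -0.40. On the other side *Slc25a10* came to 1.25, *Slc25a32* to 0.38 and *Slc25a28* to 0.61, and of the carriers with many counts *Slc25a12* came to -0.39, *Slc25a20* to 0.21 and *Slc25a11* to -0.29. Within the batches the median log2 ratio was -0.14 for dim M25 over control M26 (-0.011 over all features). For dim M116 over control M73, which share no plate, it was -0.04 (0.044). Dim CMs held more macrophage marker RNA than the others: 6 of 7 markers had a count, with *Fcgr1* at 0, and the sums stood at 62.5 and 72.7 CPM against 2.09 to 12.2 CPM in control (6 of 7, *Ptprc* at 0) and 0.264 to 2.00 CPM in bright CMs (4 of 7, with *Ptprc*, *C1qa* and *Fcgr1* at 0). Its part in the carrier values was not tested.

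Bright and dim CMs of the same 2 homozygous mice differ in transgene level within the animal. Among 13439 features, 0 (0.0%) and of the carriers 0 passed an adjusted p of 0.05, with 554 features (4.12%) and 0 carriers at an unadjusted p under 0.05, and with 133 features and 0 carriers called by DESeq2. 15 values were positive (49.5% of all features are) and 14 negative. The spread was smaller than against control, with log2 fold changes from -0.94 to 1.36 and a median of 0.04 against -0.01. For all 3 carriers of fatty acids, oxoglutarate and dicarboxylates both bright sums lay below both dim sums, *Slc25a11* by -0.24 ± 0.18, *Slc25a20* by -0.30 ± 0.22 and *Slc25a10* by -0.65 ± 0.51, as was *Slc25a28* (-0.56 ± 0.56), a pattern that 16.0% of all features show. *Slc25a26* (1.04 ± 0.42, unadjusted p = 0.053, adjusted p = 0.999), *Slc25a32* (1.29 ± 0.63), *Slc25a27* (1.36 ± 0.92), *Slc25a12* (0.15 ± 0.20) and *Slc25a13* (0.19 ± 0.24) had both bright sums above both dim sums, as 15.1% of all features have. With library size alone *Slc25a12* overlapped (255 CPM in bright M25, 256 CPM in dim M116), and *Slc25a39* joined the carriers with bright above dim. Other values named by size were -0.94 ± 0.75 for *Slc25a38*, -0.74 ± 0.66 for *Slc25a15*, -0.33 ± 0.26 for *Slc25a46*, 0.65 ± 0.85 for *Slc25a25* and 0.51 ± 0.49 for *Slc25a17*. The fit with the mouse as a block, since bright and dim sums share the animal, also called 0 carriers.

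Fibroblast marker RNA, with counts for all 8 markers in each group, was at 77.9 and 2537 CPM in bright, 66.2 and 240 CPM in dim and 33.4 and 143 CPM in control CMs. The highest value belonged to bright M25, and its part in the carrier values was not tested. Endothelial markers (7 of 7 in each group) stood at 73.5 and 89.9 CPM in bright, 175 and 178 CPM in dim and 93.0 and 183 CPM in control CMs. The smooth muscle and pericyte markers stood at 30.2 and 34.1 CPM in bright (5 of 5), at 65.9 and 85.1 CPM in dim and at 63.3 and 97.6 CPM in control CMs (4 of 5 in both, *Myh11* at 0). For both lists the 2 bright sums lay below all dim and control sums, and the part of this in the carrier values was not tested. In bright against control 4 of 7 endothelial and 3 of 4 tested smooth muscle and pericyte markers were lower without overlap (14.8% of all features). *Cspg4*, the other one tested, was higher without overlap (3.84 ± 1.54, with 24.3% of all features). In bright against dim 6 of 7 endothelial and 3 of 4 smooth muscle and pericyte markers were lower without overlap (16.0%). So were 5 of 5 tested macrophage markers, while *Vwf* was higher (15.1%). Of these markers 0 passed an adjusted p of 0.05 in either comparison. Erythroid markers reached 345 CPM in 1 dim sum and 987 CPM in 1 sum of mouse M72, and stayed at or below 4.02 CPM in bright and 0.244 CPM in control CMs.

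**Figure D4:**
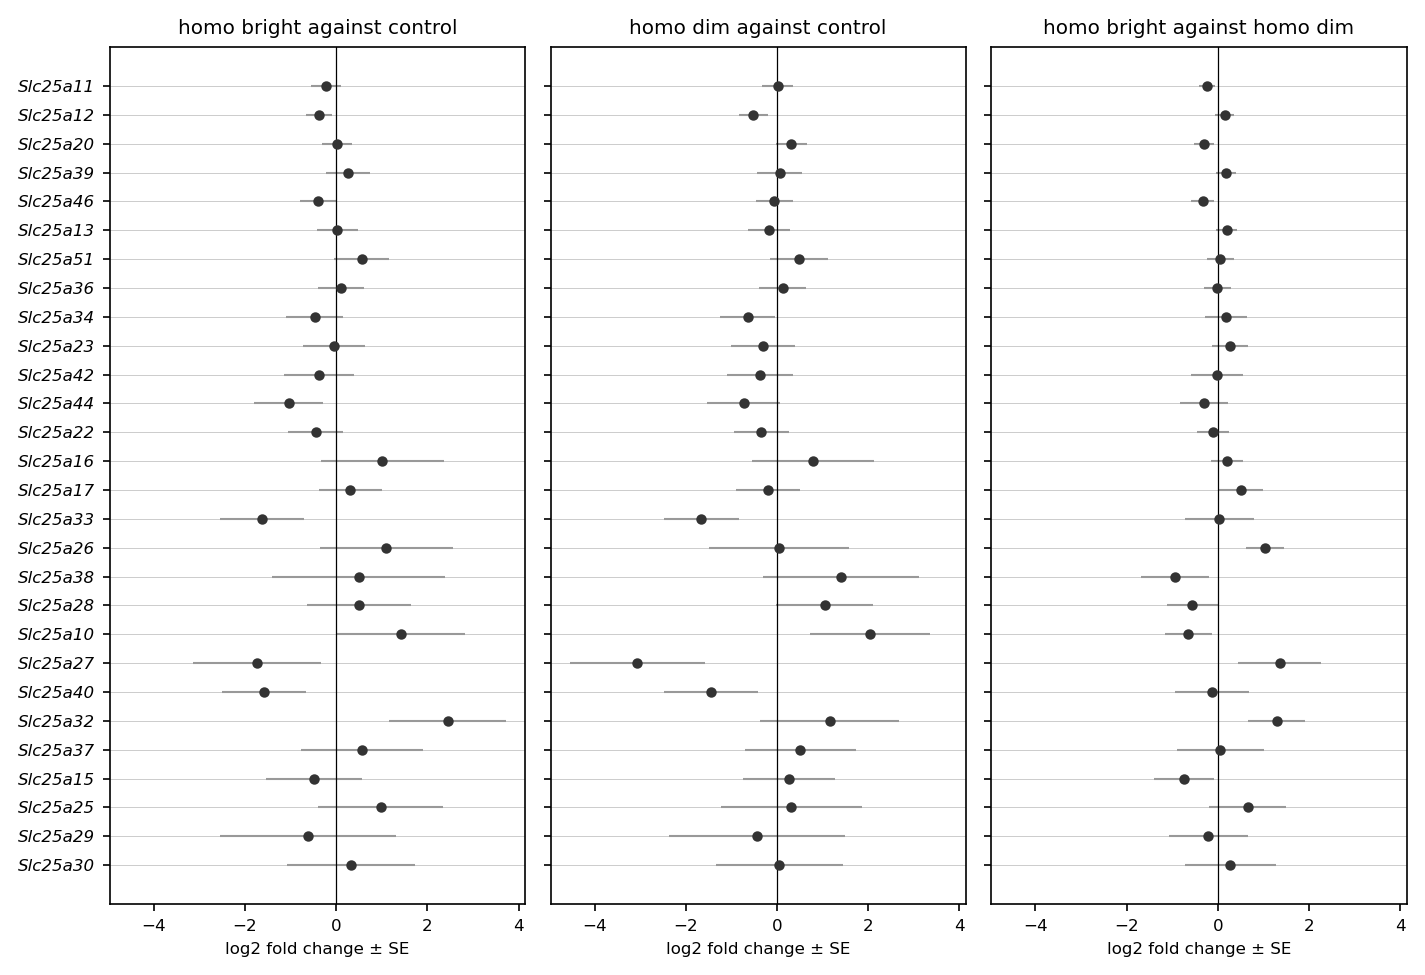
Log2 fold change ± standard error of 28 of the 29 carriers (ordered by mean CPM) in the 3 comparisons, each with 2 mice per group. The error bars widen from *Slc25a11* (0.18 to 0.34) at the top to *Slc25a29* (up to 1.93) near the bottom, and 0 carriers passed an adjusted p of 0.05 in each panel.

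The heterozygous mouse M72 is a single animal and allows no test. 3 of 29 carriers lay below the other 6 sums in both its CMs labelled bright and those labelled dim, *Slc25a20* (59.6 and 79.1, against 115.99 to 173 normalised CPM), *Slc25a17* (12.1 and 11.4, against 14.8 to 37.2) and *Slc25a15* (4.41 and 2.29, against 4.99 to 14.4), and 0 lay above. Of all 16615 features tested, 2.97% lay below and 5.33% above in this way. The mouse shares its plate with control M73, whose *Slc25a20* stood at 115.99, with 36.75% of the counts from 1 cell. The median cell of control M73 stood at 44.0 CPM, and the part of the plate was not tested. The sum labelled bright over that labelled dim gave a log2 ratio of -0.41 for *Slc25a20* in M72, where hBAG RNA goes against the labels, of -0.06 in M25 and of -0.53 in M116. *Slc25a26* gave -0.83 in M72, against 1.13 and 0.97 in M25 and M116.

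Several carriers come in pairs with the same or a similar substrate, and the share of the first gene in the pair's counts per kilobase shows which of them had more RNA. *Slc25a12* held 60.6 to 80.2% of the pair with *Slc25a13* in all 8 sums, and *Slc25a39* held 87.8 to 99.0% of the pair with *Slc25a40*. *Slc25a23* held 76.5 to 98.1% of the pair with *Slc25a25*. These 3 pairs kept the same leading gene in every sum, with the outermost value in control M73 for each. Without control M73 the ranges were within 60.6 to 70.8%, 97.1 to 99.0% and 76.5 to 94.2%. The other pairs changed sides: *Slc25a28* held 46.4 to 80.1% of the mitoferrins, *Slc25a36* 12.03 to 64.3% of the pyrimidine nucleotide carriers, *Slc25a16* 4.50 to 72.3% of the pair with *Slc25a42* and *Slc25a27* 37.6 to 93.3% of the pair with *Slc25a30*. The lowest *Slc25a16* share, 4.50% (95% Clopper-Pearson interval 0.553 to 15.2%, counting error only), was that of control M73 with 2 against 53 counts. The *Slc25a16* shares of mouse M25, 72.3% in bright (68.9 to 75.5%) and 48.8% in dim (45.2 to 52.4%), came from 1 animal, in which 1 cell held 43.3% of the *Slc25a16* counts in the bright and 17.2% in the dim sum. *Slc25a24*, *Slc25a18* and *Slc25a14*, relatives of *Slc25a25*, *Slc25a22* and *Slc25a27*, were under the detection limit.

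**Figure D5:**
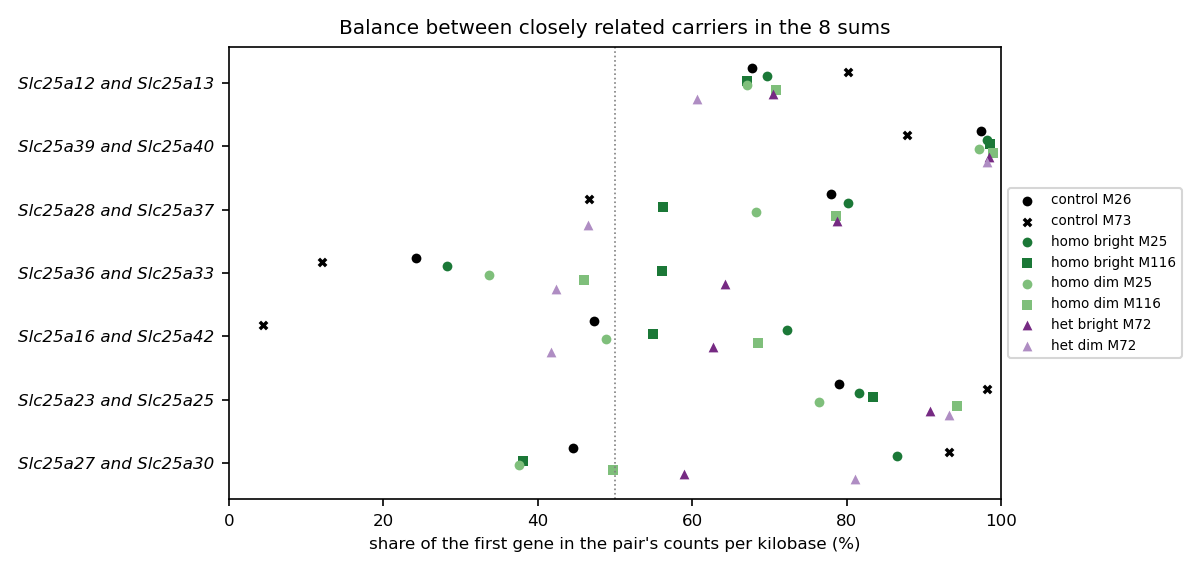
Share (percent) of the first-named gene in the counts per kilobase of each pair of related carriers, with 1 point for each of the 8 sums and a dotted line at 50%. *Slc25a12*, *Slc25a39* and *Slc25a23* stayed above 50% in all sums (lowest 60.6, 87.8 and 76.5%), and the other 4 pairs crossed it.

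Partner genes of the carriers were counted in the same fits. Of the 6 enzymes of the malate-aspartate and glycerol phosphate shuttles, 5 had negative values in bright against control, and 0 passed an adjusted p of 0.05 in any of the 3 comparisons. *Got1*, the cytosolic aspartate aminotransferase, stood at 348 and 370 in bright and 646 and 511 normalised CPM in control (log2 fold change -0.69 ± 0.28, adjusted p = 0.761), and *Gpd2* had no count in control M73 (1.63 ± 1.72). Without control M73 they came to -0.85 and 0.68. Of the 4 enzymes of the carnitine shuttle, *Cpt1a* gave 0.85 ± 0.67 and *Cpt1b* 1.43 ± 1.67 (0.76 and 0.67 without control M73), and 0 passed. *Cpt1b* had 27 counts in each bright sum, 11 in control M26 and 0 in control M73, so that its fitted value depends on the prior count. Of the 10 genes that import carriers into the inner membrane, 4 values were positive and 6 negative in bright against control, with -0.82 ± 0.55 for the receptor *Tomm70a* and -0.73 ± 0.49 for *Timm22* (0.07 and -0.45 without control M73), and 0 passed in any comparison. The 3 VDAC channels of the outer membrane gave 0.06 to 0.16 in bright against control, with *Vdac3* at 0.16 ± 0.37 and *Vdac2* at 0.15 ± 0.44, which turned to -0.21 and -0.35 without control M73. Among 16 of 18 other inner membrane transporters tested, 8 values were positive and 8 negative, with -2.18 ± 0.94 for *Sfxn4* and -1.84 ± 1.48 for *Sfxn2* (-0.82 and -1.17 without control M73), and 0 passed. *Sfxn2* had 0 and 4 counts in the dim sums, 53 and 27 in bright and 66 and 27 in control, and gave -6.48 ± 2.13 in dim against control (unadjusted p = 0.0196, adjusted p = 0.735; -5.88 without control M73) and 4.71 ± 2.01 in bright against dim (adjusted p = 0.999), both of which depend on the prior count. The relatives under other symbols gave 0.75 ± 0.65 for *Ucp3* and 0.09 ± 0.36 for *Mtch1* (1.01 and 0.01 without control M73), and 0 of 4 tested passed.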

How the data were processed

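Single CMs were sequenced with SMART-seq2. The authors aligned reads with STAR, using a mouse reference to which the BAG3 and eGFP transgene sequences had been joined, and deposited raw counts per gene and cell. The genome build, annotation and strand column are not given in the sources used here, so no gene positions from the table are given, and exon lengths (all 29 carriers) and overlaps come from GENCODE M21. Reads of close relatives may be split between copies. bcl2fastq is named in the submitters' processing notes.

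Counts were summed per mouse and label. Nothing but the label says that mice are independent, and p-values measure the spread between 2 mice per group. Each comparison used edgeR 4.0.16 in R 4.3.3 (filterByExpr, TMM, glmQLFit, glmQLFTest, Benjamini-Hochberg over all features tested, threshold 0.05) on 4 sums. All 29 carriers passed the filter on low counts in each comparison. The SE is the log2 fold change divided by the square root of F. The fit was tested on simulated data. With 2 mice per group, a gene that misses the threshold is not shown to be equal between groups. The bright and the dim sum of a homozygous mouse share the animal and are paired. Over 6602 genes their deviations correlated with Pearson r = 0.095 and Spearman rho = 0.198, across genes, which are not replicates. Alternatives were DESeq2 1.42.0 and its size factors, library size alone, no filter, cells with at least 1000 genes, all 8 sums in 1 fit, equal weight per cell (limma 3.58.1 on log2(mean CPM + 1)), batch or replicate blocks and each sum left out. Carriers were named by a rule: the 6 with the highest mean CPM, the 5 largest changes each way per comparison, pairs of relatives, and those at the detection limit; of other lists up to 2 genes. 1 carrier is counted among the 29 but its own values are not reported here. The carriers and lists were chosen with earlier results of these data known. Promoter windows are RefSeq sequences on GRCm38.p6. A cell held a median of 498819 to 1053324 counts per sum, and counting intervals cover counting error only.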

Additional observations from a re-analysis of the deposited data

Results flagged for a closer look

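In 7 of 15 named carriers the ratio of CMs labelled bright to those labelled dim had one sign in both homozygous mice and the opposite sign in the heterozygous mouse M72; the difference was not tested, since M72 is 1 animal. hBAG RNA of M72 also went against the labels, at 110.3 normalised CPM in the CMs labelled bright and 243 in those labelled dim, whereas it was higher in bright than in dim CMs of both homozygous mice. The log2 ratio in M72 was 0.95 for *Slc25a15* (-0.37 in M25 and -0.93 in M116), 0.95 for *Slc25a28* (-1.17 and -0.03), 0.97 for *Slc25a46* (-0.24 and -0.38) and 0.16 for *Slc25a11* (-0.15 and -0.32). It was -0.86 for *Slc25a27* (2.45 and 0.16), -0.83 for *Slc25a26* (1.13 and 0.97) and -0.18 for *Slc25a13* (0.13 and 0.26). The same pattern was shown by 7 of all 29 carriers (24.1%) and by 3078 of 11289 features with counts in all 6 sums (27.3%), so its share among the carriers was close to the background. With the 2 sums of M72 exchanged, as hBAG RNA would order them, these 7 carriers would share the sign of the homozygous mice and 9 others (31.0%) would have the opposite sign, against 2802 features (24.8%). In M72, 1 cell held 88% of the *Slc25a15* counts of the CMs labelled dim and 59% of those of the CMs labelled bright.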

How the results depend on the processing

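No carrier passed an adjusted p of 0.05 under any setting that kept all 4 sums of a comparison, and in dim against control 0 to 3 passed with 1 sum left out. Leaving out 1 sum, the median log2 fold change of the carriers ran from -0.19 to 0.16 (bright against control), from -0.10 to 0.17 (dim against control) and from -0.09 to 0.15 (bright against dim). Scaling by library size alone moved the median of all features from 0.11 to 0.41 and from 0.10 to 0.38 in the comparisons with control. In bright against control it moved the carrier median from 0.02 to 0.33, and equal weight per cell moved it to 0.40, with 0.49 over all features. In dim against control it moved the carrier median to 0.28, and equal weight per cell moved it to 0.54, with 0.49 over all features; in bright against dim equal weight gave -0.11. The replicate block gave a carrier median of -0.05, called 0 carriers and changed no call. Of 368 single-gene values under other settings, 359 kept their direction and 9 reversed. In bright against control these were *Slc25a11* with library size alone (0.078) and equal weight (0.24), *Slc25a20* with DESeq2 size factors (-0.012) and *Slc25a46* with equal weight (0.13). In dim against control they were *Slc25a11* with DESeq2 size factors (-0.0065), *Slc25a46* with library size alone (0.26) and equal weight (0.43), and *Slc25a13* likewise (0.10 and 0.39). With 1 sum left out, 18 of 184 values reversed. The ranges in bright against control were -2.65 to 1.42 for *Slc25a27*, -0.51 to 0.16 for *Slc25a11*, -0.064 to 0.12 for *Slc25a20*, -0.24 to 1.03 for *Slc25a39* and -0.26 to 0.40 for *Slc25a13*. In dim against control they were -3.98 to 0.048 for *Slc25a27*, -1.40 to 0.20 for *Slc25a44*, -0.15 to 5.14 for *Slc25a16*, -0.29 to 0.41 for *Slc25a11*, -0.44 to 0.86 for *Slc25a39*, -0.32 to 0.28 for *Slc25a46* and -0.47 to 0.22 for *Slc25a13*, and in bright against dim -0.088 to 0.93 for *Slc25a17*. The cause of these reversals was not tested. Among the fits that kept every sum, the number of features called varied by over 1.5 times, and it also moved with 1 sum left out. In bright against control it was 2 in the main fit, 188 with DESeq2 and 163 without a filter. All sums in 1 fit gave 5, the batch block 10 and equal weight 0. In dim against control the same fits gave 0, 137, 58, 1, 12 and 0. In bright against dim it was 0 in the main fit, 133 with DESeq2 and 217 without a filter. A detection limit of 5% would give 35 carriers and one of 20% would give 26.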
